A study of Mus musculus with 12 samples.

Results

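Olfactory receptor (Olfr) and vomeronasal receptor (Vmn1r and Vmn2r) genes were examined for signal in mouse ovaries. The members were chosen by the scanner software's detection call: a spot of the gene's probe had to be well above background in at least 4 of 12 ovary samples. Of 1354 such receptor genes on the array, 111 met the rule, each through 1 probe of 60 bases. They were 86 of 1100 Olfr, 17 of 162 Vmn1r and 8 of 92 Vmn2r genes. By spots, 123 of 1632 receptor spots met the rule, against 63.5% of all 43020 spots that measure transcripts.

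The ovaries came from C57BL/6J females aged 2 months in 3 diet groups of 4 mice. The control mice (C1 to C4) ate a normal diet throughout, the second group (E1 to E4) lacked dietary vitamin D only in early life, and the third (P1 to P4) only around puberty. RNA of whole ovary was hybridised to 6 Agilent arrays, each with 2 mice of the same group, the odd-numbered in the Cy3 (green) and the even-numbered in the Cy5 (red) channel. Slide 1 held the arrays of control and early-life mice and slide 2 those of peripubertal mice, so peripubertal diet and slide cannot be told apart. In whole-tissue RNA, fewer cells of a type and less RNA per cell cannot be told apart either.

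Odorant receptors are G protein-coupled receptors with which sensory neurons of the nose bind volatile molecules, and each mature neuron expresses mainly a single receptor gene. Odorant binding raises cyclic AMP through the G protein subunit Gnal and the cyclase Adcy3, which opens a cyclic nucleotide-gated channel. The Vmn1r and Vmn2r receptors serve pheromone detection in the vomeronasal organ, where the channel Trpc2 carries the current. Vmn2r proteins have a long extracellular domain that Vmn1r proteins lack. The families are large, and neighbouring genes often have similar sequences, so a probe can pair with RNA of more than 1 gene.

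The probe sequences on which the results rest are given here from the scanner files, with their mm9 positions. Intron, exon and UTR annotation of that build was not used here. The first set holds the probes that differed most between groups or arrays: Vmn2r28 at chr7:5432165-5432224 on the minus strand, Olfr1357 at chr10:78074766-78074825 on the minus strand, Olfr434 at chr6:43167211-43167270 on the plus strand, and Vmn1r230 at chr17:20984362-20984421 on the plus strand. No base is capitalised in this set.
Vmn2r28: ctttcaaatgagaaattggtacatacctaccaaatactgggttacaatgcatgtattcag
Olfr1357: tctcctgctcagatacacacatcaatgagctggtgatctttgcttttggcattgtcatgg
Olfr434: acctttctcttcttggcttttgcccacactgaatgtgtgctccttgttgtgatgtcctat
Vmn1r230: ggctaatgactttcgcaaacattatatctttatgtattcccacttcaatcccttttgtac

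The second set holds the brightest probes, Vmn1r65 at chr7:5959355-5959414 and Olfr544 at chr7:109632628-109632687, both on the minus strand. Capitals mark the hexamer AATAAA, the common polyadenylation signal. It stood in 9 of the 111 member probes (8.11%), in 5.95% of the other receptor probes and in 12.6% of all probes. On the opposite strand (TTTATT) it stood in 1.80%, 5.01% and 4.03% of them.
Vmn1r65: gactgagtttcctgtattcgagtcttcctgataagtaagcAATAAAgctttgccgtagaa
Olfr544: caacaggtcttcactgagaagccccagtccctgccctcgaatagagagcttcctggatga

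The third set holds probes that share bases. The 2 probes of Olfr373, at chr8:74624499-74624558 and chr8:74624539-74624598 on the plus strand, overlap by 20 bases, which are in capitals. In the pairs of different genes, capitals mark the longest identical run, of 51 bases between Vmn2r12 and Vmn2r13 and of 38 bases between Olfr328 and Olfr330. Vmn2r3 and Vmn2r4 share a run of 19 bases and 50 of 54 aligned bases in all.
Olfr373 probe above background: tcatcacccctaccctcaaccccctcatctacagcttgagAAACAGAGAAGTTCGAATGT
Olfr373 probe at background: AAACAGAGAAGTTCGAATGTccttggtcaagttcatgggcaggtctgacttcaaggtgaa
Vmn2r12: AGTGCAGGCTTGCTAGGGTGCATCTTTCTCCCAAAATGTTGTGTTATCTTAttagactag
Vmn2r13: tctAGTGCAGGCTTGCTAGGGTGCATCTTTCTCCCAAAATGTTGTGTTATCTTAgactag
Olfr328: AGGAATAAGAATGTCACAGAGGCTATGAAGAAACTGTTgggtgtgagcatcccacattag
Olfr330: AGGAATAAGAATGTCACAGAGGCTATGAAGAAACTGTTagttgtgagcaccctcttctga
Vmn2r3: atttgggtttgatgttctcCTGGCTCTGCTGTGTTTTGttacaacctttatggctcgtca
Vmn2r4: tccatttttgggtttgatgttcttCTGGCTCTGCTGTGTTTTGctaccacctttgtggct

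Before the results, 2 facts about the samples bear on them. The deposited value table holds control and early-life columns that matched the scanner signals of the other group's mice, with correlations that all round to 0.9998 across spots. Which of these groups a scanner channel belongs to is therefore open, and the scanner files' own labels are used here. Exchanging them turns the sign of every early-life minus control difference and swaps the 2 peripubertal comparisons. Second, the tissue was checked by its markers: 18 of 18 ovary markers on the array were above background, among them the oocyte gene Zp3 and the granulosa cell gene Inha, each in 12 of 12 samples. Markers of oviduct epithelium varied widely, with a mean log2 intensity of 8.72 to 10.91 in control, 9.52 to 13.09 in early-life and 8.37 to 9.26 in peripubertal samples. Each mean is over the markers with a value in that sample, and Ovgp1 lacked a value in some control samples.

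Most receptor spots were not well above background in any ovary. Of the 1632 spots, 1289 were above background in 0 samples, 83 in 1, 125 in 2 and 12 in 3 samples, while 51 were above it in all 12. Among the 125 spots above background in 2 samples, 116 were so in both mice of the same array. Over all spots on the array that were above background in 2 samples, this held for 1411 of 1919 (73.5%). The number of receptor spots above background per sample was 101 to 119 in control, 91 to 149 in early-life and 108 to 147 in peripubertal mice, and the ranges overlapped.

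**Figure D1:**
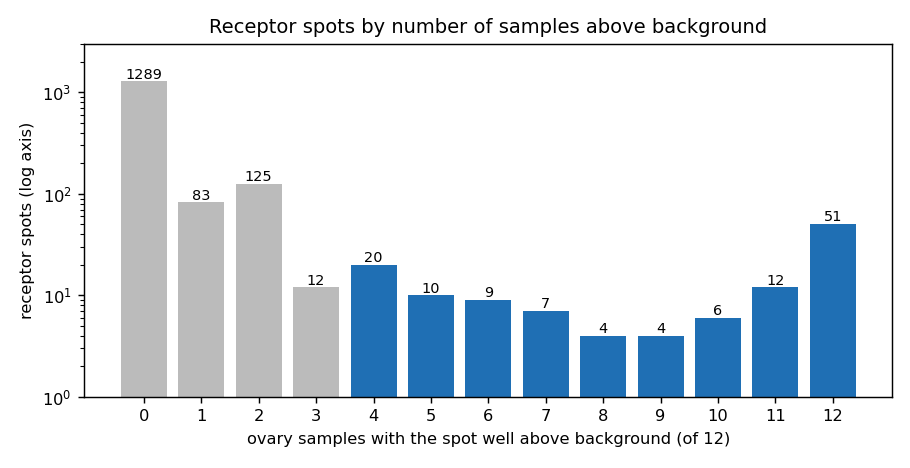
Number of receptor spots (log axis) by the number of ovary samples, of 12, in which the spot was well above background. Blue bars are the 123 spots that met the rule of at least 4 samples; grey bars are the spots that did not, of which 1289 were above background in 0 samples.

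Near the threshold the spots differed little in typical signal. The 20 spots above background in exactly 4 samples had a median signal of 63.8 scanner units after subtraction of the local background, and the 12 spots at 3 samples had one of 62.2. The spots at exactly 4 samples include genes that were above background in a single group. Vmn2r28 was above background in the 4 peripubertal mice, Vmn1r230 in the 4 early-life mice and Olfr1357 in the 4 control mice. Of the 111 genes, 91 were above background in some sample of all 3 groups, 17 in 2 groups and these 3 in a single group.

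The levels were low. The mean normalized log2 intensity of a member over the 12 samples had a median of 7.24, against 9.83 over the 24676 probes above background in at least 4 samples. With those probes cut into 4 equal classes by that mean, 91 of the 111 members lay in the lowest class, 13 in the next, 6 in the next and 1 in the highest. Only 50 genes were above background in all 12 samples. The brightness of a spot depends on its sequence as well as on the RNA, so the order of these signals is not an order of transcript amounts. The member probes had a median GC content of 45.0%, the other receptor probes 38.3% and all probes 41.7%.

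Vmn1r65, a vomeronasal type 1 receptor, gave the highest signal of the 111. After subtraction of the local background it read 2506, 9493, 4695 and 5296 in C1 to C4. It read 2807, 9129, 2238 and 6222 in E1 to E4, and 3442, 4000.2, 4492 and 11058 in P1 to P4. The 3 groups overlapped throughout, with mean log2 intensities of 12.29 ± 0.42 in control, 12.07 ± 0.36 in early-life and 12.36 ± 0.45 in peripubertal mice (SD, n = 4 each). Olfr544, an odorant receptor known to respond to azelaic acid and expressed in several tissues outside the nose, followed. Its mean log2 intensity was 11.62 ± 0.08 in control, 11.39 ± 0.06 in early-life and 11.61 ± 0.12 in peripubertal mice (SD, n = 4 each).

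The next brightest were the odorant receptor genes Olfr1229, Olfr1368, Olfr373, Olfr1466, Olfr224, Olfr629 and Olfr212, with mean log2 intensities from 10.46 to 8.87, and Vmn2r111 at 8.73. All 10 brightest genes were above background in 12 of 12 samples. Olfr1229 was among the steadiest of them, at 10.44 ± 0.08, 10.43 ± 0.05 and 10.51 ± 0.08 in control, early-life and peripubertal mice (SD, n = 4 each). None of the 10 passed the test between groups described below. The probe of Vmn2r111 shares 51 of 56 aligned bases with a probe of an unnamed transcript that was also above background in 12 samples.

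Agreement between different probes of a gene could be examined for 14 members, chosen after their values were seen. None of their other probes met the rule, so 0 of 14 genes had a second probe above background. Over all genes on the array with at least 2 probes, of which 1 met the rule, 4571 of 6145 (74.4%) had a second. These genes span all levels of signal, and no share was computed for genes as dim as most members. For Olfr373 the member probe read 769.6 to 2844 over the 12 samples, with a median of 1260.1, while the probe that overlaps it by 20 bases read 18.6 to 55.4 and was above background in 0 samples. For Olfr629 the medians of the 2 probes were 445 and 32.9, and for Vmn2r111 they were 374 and 23.2. Olfr456 showed the smallest gap, with medians of 72.7 and 64.5 and detection in 6 and 3 samples. Vmn1r183 had 2 other probes, and 1 of them read 553 in E3 and 1297 in E4, the 2 mice of that array, and 13.9 to 48.4 in the other 10 samples.

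**Figure D2:**
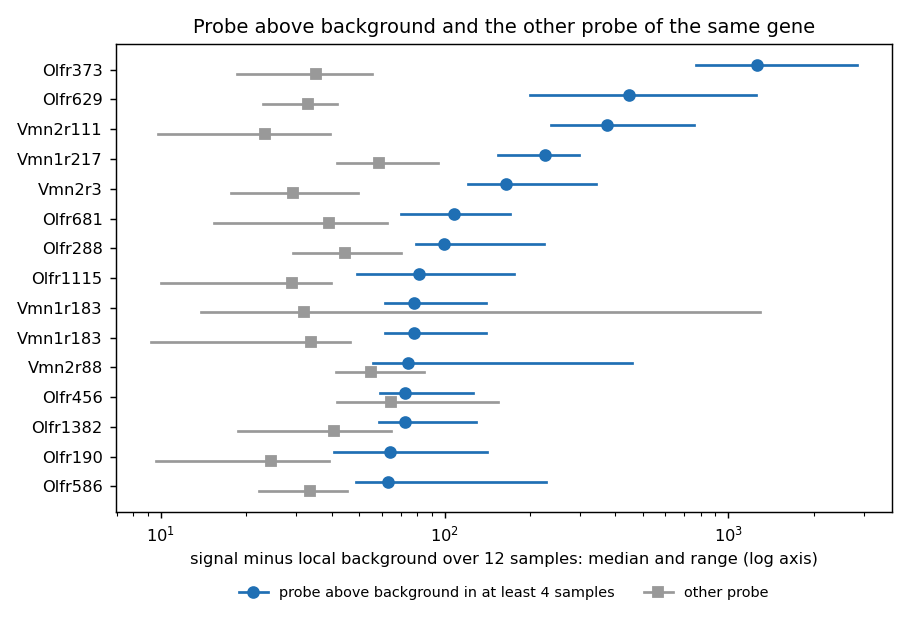
Signal minus local background (log axis) over the 12 samples, with the median as a point and the range as a line, for the probe that met the rule (blue) and for the other probe (grey) of the same gene. The blue probe is the one chosen for its detection, so its place above the grey one in these 14 genes (15 pairs) follows from the choice; the medians run from 72.7 against 64.5 for Olfr456 to 1260.1 against 35.3 for Olfr373.

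Repeated spots of a probe could be examined for Olfr53 and Olfr74, each printed 10 times on every array. For Olfr74, 9 of the 10 spots met the rule. In C1 its spots read 32.6 to 87.6 with a median of 71.6, and the same spot was the lowest of the 10 in 11 of the 12 samples. For Olfr53, 5 of the 10 spots met the rule. A single spot read 457 in P3 and 420 in P4, the 2 mice of that array, where the next highest spot of the same probe read 142 and 153. That spot had been set aside as an outlier by the scanner software, and it did not enter the normalized values.

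Such isolated bright spots were counted over all 399 probes printed 10 times. A spot exceeded 4 times the median of its 10 repeats in both mice of an array in 55 of 23940 cases (0.230%). For probes with medians under 200 units in both mice the count was 48 of 8380 (0.573%). All 55 carried an outlier flag. The flag that compares a spot with its repeats was set 1619 times among probes printed 10 times and 0 times among the 39030 probes printed once. The other outlier flag, for non-uniform spots, was set 13346 times among the probes printed once, and 2.85% of their values were set aside. Of the 111 members, 109 were printed once, and none of these 109 had a value set aside by either flag.

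**Figure D3:**
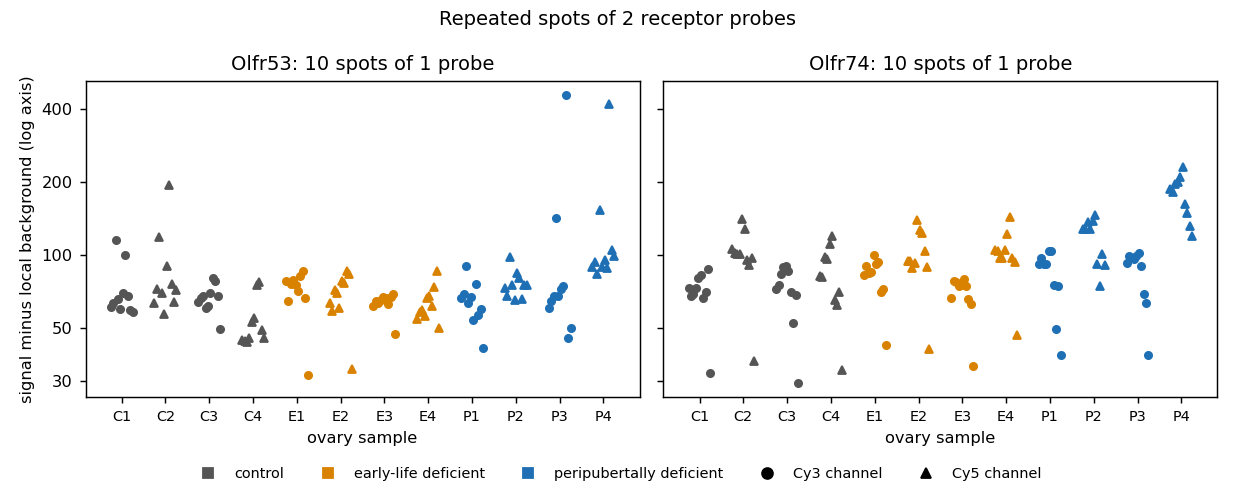
Signal minus local background (log axis) of each of the 10 spots of the Olfr53 probe and of the Olfr74 probe, by ovary sample; colours give the diet group and symbols the dye channel. A single Olfr53 spot stands at 457 in P3 and 420 in P4, while the other 9 spots in those samples read at most 142 and 153.

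Several members were bright in both mice of an array and far dimmer on the other array of the same group. The 5 members with the widest range within a group, Olfr434, Olfr297, Vmn2r88, Vmn1r230 and Olfr125, all had this form, although Vmn1r230 was above background on both early-life arrays. Olfr434 read 2229 in E3 and 2481 in E4 but 55.1 in E1 and 49.2 in E2. It also read 553 in P1 and 516 in P2, while P3, P4 and the controls read 38.6 to 80.2. The 2 mice of an array thus resembled each other, and mice of the same diet on different arrays did not.

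Olfr297 read 1286 in P1 and 1200.1 in P2, 221 in E3 and 244 in E4, and 57.0 to 132 in the other 8 samples. Vmn2r88 read 454 in P3 and 459 in P4 and 55.9 to 81.1 in the other 10. Olfr125 read 218 in P1 and 193 in P2, and its other peripubertal values were 22.2 and 25.7. None of these 3 genes passed the test in any comparison, with adjusted p from 0.202 to 0.894 in limma.

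Weaker forms of the same pattern were seen in members further down the list. Vmn2r116, known as the receptor for the tear peptide ESP1, read 189 and 169 in C3 and C4 but 48.2 and 37.7 in C1 and C2. It read 121 and 208 in P1 and P2 but 43.3 and 45.2 in P3 and P4. Vmn1r63 read 192 and 174 in C3 and C4 and at most 82.4 elsewhere. These 2 genes were named after their values were seen.

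The spread was therefore split into a part between the 2 mice of an array, with the dye effect removed, and a part between the 2 arrays of a group. On the scale of a single mouse the median SD of the 111 members was 0.091 log2 units within arrays and 0.162 between arrays. Over the 19518 probes with a value in every sample these medians were 0.139 and 0.200. The SD between arrays exceeded 2 times that within arrays for 46 members (41.4%), against 26.5% of all probes and 30.5% of the probes in the lowest class of level. It exceeded 4 times for 18 members (16.2%), against 4.35% and 6.60%. The rule of at least 4 samples, which all these probes met, can be met through 2 whole arrays, as it was by Olfr434 and Olfr1208. What the rule adds to these shares was not examined, and no test was made of them.

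Colour balance was compared with that of the rest of each array. Over spots above background in both channels, the median ratio of red to green signal on the 6 arrays was 1.60 to 2.50. For Olfr434 the ratio was 1.11 on the array of E3 and E4 and 0.934 on that of P1 and P2, where the array medians were 2.14 and 1.76. For Vmn2r28 it was 0.840 and 0.946 on the 2 peripubertal arrays, where the medians were 1.76 and 2.50. The steadily bright Olfr544 had 1.69 and 2.30 on the same 2 arrays. The other steadily bright member, Vmn1r65, strayed from the array median too, with 1.16 and 2.46 on these arrays, 1.13 on the array of C3 and C4 (median 1.60) and 3.79 on that of C1 and C2 (median 2.00). Olfr297, Olfr125, Vmn1r230 and Vmn2r88 also lay below the array median where they were brightest. The ratio was 0.933 for Olfr297 and 0.886 for Olfr125 on the array of P1 and P2 (median 1.76). It was 0.922 for Vmn1r230 on that of E3 and E4 (median 2.14) and 1.01 for Vmn2r88 on that of P3 and P4 (median 2.50). Vmn1r65 lay below the median on some arrays and above it on others. For a count of bright spots, each signal was divided by its channel's median over spots above background in at least 4 samples. A scaled signal over 3 times the spot's own median then occurred in both mice of an array 8 times among members, in 6 genes. It occurred in a single mouse of an array 7 times. Over all spots above background in at least 4 samples, 24.6% of such cases were in both mice. What the array, the slide or the dye contribute to these values was not tested.

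**Figure D4:**
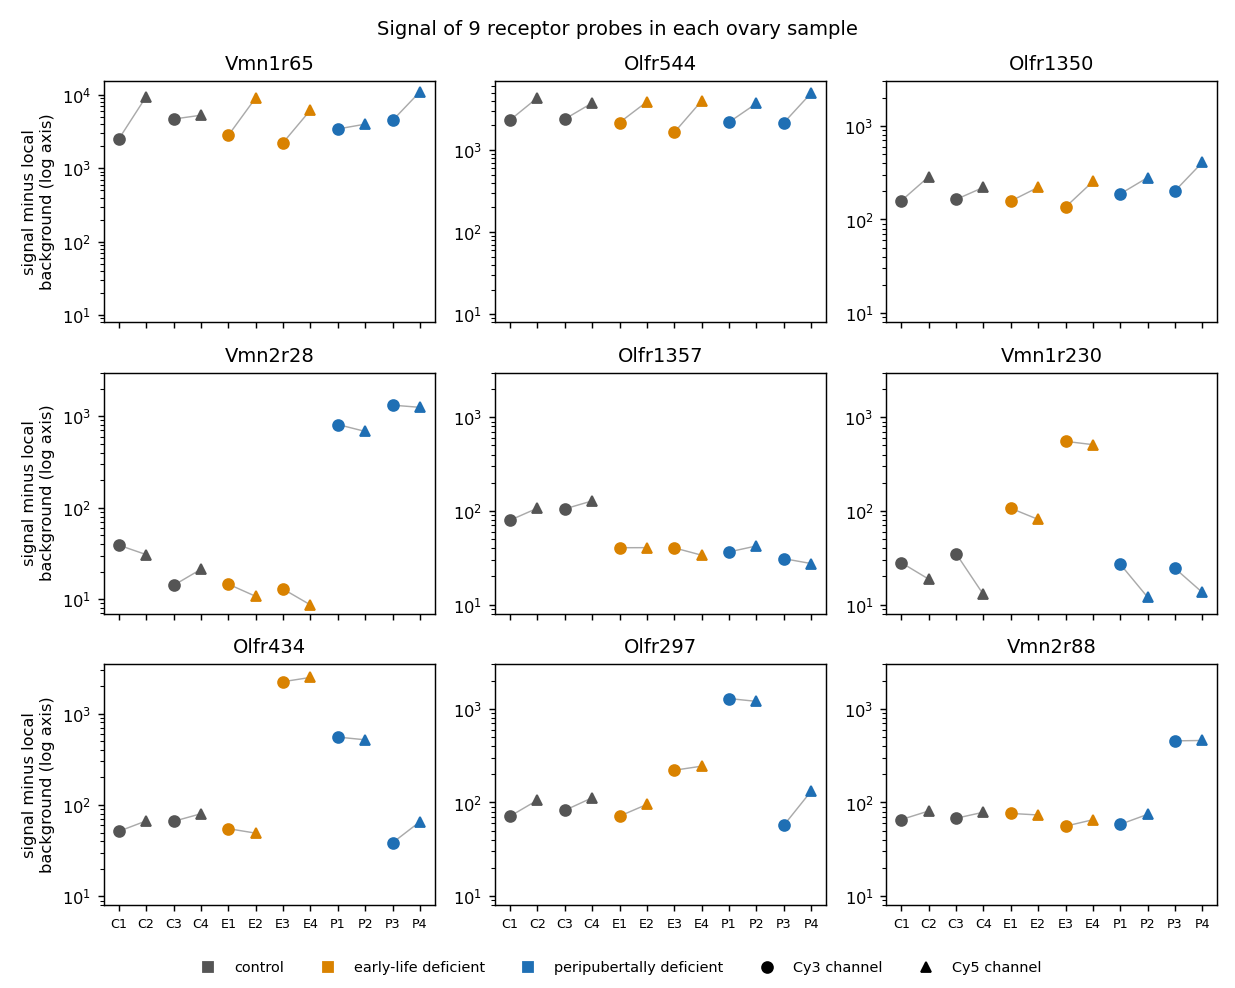
Signal minus local background (log axis) of 9 receptor probes in each ovary sample; grey lines join the 2 mice of an array, colours give the diet group and symbols the dye channel. Vmn1r65 and Olfr544 were bright in all 12 samples, Vmn2r28 read 682 to 1321 in peripubertal mice and 8.68 to 39.0 elsewhere, and Olfr434, Olfr297 and Vmn2r88 were bright in both mice of single arrays.

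Differences between diets were tested with limma on the normalized log2 intensities of all probes above background in at least 4 samples, with dye as a covariate, array as a random block and Benjamini-Hochberg adjustment over all probes tested. A probe was called at an adjusted p under 0.05. The rule that chose the members counts samples above background over all 12 samples without regard to group. Genes above background in 1 group alone could enter only through that group, so their differences are given as a description.

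Vmn2r28 was the member with the largest difference, and it was named with earlier results of these data known, so its p is no independent support. After subtraction of the local background it read 39.0, 30.8, 14.2 and 21.3 in C1 to C4 and 14.6, 10.8, 12.95 and 8.68 in E1 to E4. In P1 to P4 it read 812, 682, 1321 and 1250.4. The peripubertal values did not overlap those of either other group, and the probe was not well above background in any control or early-life sample. The mean log2 intensity was 6.26 ± 0.32, 5.98 ± 0.21 and 10.02 ± 0.72 in control, early-life and peripubertal mice (SD, n = 4 each).

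Because only bounds exist for the dim groups, a signal at least 9.12-fold higher than in control and at least 9.93-fold higher than in early-life mice can be stated. Each bound sets the peripubertal mean against the lowest signal that was well above background in each dim sample, or the probe's own where higher. E1 was left out of the early-life bound, a choice made after seeing the data, because its lowest such signal (5.30 on the log2 scale) lay below its own negative controls (6.28). With the probe's own E1 value included the bound was 11.6-fold. The fitted log2 difference was 3.76 ± 0.40 (SE) against control, with an adjusted p of 0.0163 in limma. It was 4.04 ± 0.40 against early-life, with an adjusted p of 0.0112. Without E1 the limma adjusted p became 0.0592 and 0.0800, and without E3 it was 0.0541 against early-life. With only the 2 groups compared in the fit it was 0.145 against control. All 4 bright values lie on slide 2, and Vmn2r28 has 1 probe on the array.

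The probes most like Vmn2r28 over the 12 samples, by Pearson correlation of dye-adjusted log2 values, were those of A230038B01Rik, Slmo1, Svs3a, Wdr92 and an unnamed Ensembl transcript, with r from 0.989 to 0.969. None was a receptor probe. A230038B01Rik averaged 6.58 in control, 6.22 in early-life and 9.33 in peripubertal mice. Svs3a, which encodes a seminal vesicle secretory protein, averaged 6.24, 6.14 and 8.34 and was above background only in the 4 peripubertal samples. Slmo1 averaged 8.26, 8.23 and 8.58. The 12 values include a split between the slides that all 5 share.

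Olfr1357, an odorant receptor gene, showed the opposite form and was also named with earlier results known. It read 79.7, 107, 105 and 128 in C1 to C4, 40.5, 40.6, 40.4 and 33.7 in E1 to E4, and 36.6, 42.3, 31.0 and 27.5 in P1 to P4. The control values lay above all others, and the probe was not well above background in any early-life or peripubertal sample. The signal in control mice was at least 1.52-fold higher than in early-life mice without E1, 1.62-fold with it, and at least 1.30-fold higher than in peripubertal mice.

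The fitted log2 difference of Olfr1357 was -0.88 ± 0.11 (SE) for early-life minus control, with a limma adjusted p of 0.0488, and -0.84 ± 0.11 for peripubertal minus control, with 0.0253. The early-life call ended under 6 of 12 other settings and in 10 of 12 fits that left out a mouse. For example, the adjusted p was 0.266 without E1 and 0.159 without C1. With control and early-life labels exchanged, as the value table would have them, the high group becomes the early-life group.

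In early-life minus control, Olfr1357 was the sole receptor call among 111 members (0.901%), beside 0.0367% of all 24555 probes tested. It met the membership rule through the control mice alone, so nothing is read from these shares. At an unadjusted p under 0.05 there were 14 members (12.6%) and 13.3% of all probes, so the share was near the background. After removal of the dye effect the groups did not overlap for 24 members (21.6%), beside 17.0% of all probes. Members that met the rule through a single group were not left out of these counts. The median log2 difference was -0.09 over the members and -0.02 over all probes. The second smallest p belonged to Vmn1r230. It read 107, 81.3, 553 and 510 in E1 to E4 and 12.02 to 35.2 in the other 8 mice, at least 2.42-fold higher in early-life than in control mice, with an adjusted p of 0.235 in limma. Its early-life values did not overlap the others but differed between the 2 arrays of that group. Vmn1r230 met the membership rule through the early-life mice alone, so nothing is read from its rank, its fold or that lack of overlap.

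The other 8 genes with the smallest p in this comparison were Olfr97, Olfr1350, Olfr629, Olfr1131, Olfr482, Olfr544, Olfr558 and Olfr704. Their log2 differences ran from -0.64 for Olfr629 to 0.39 for Olfr482, and 7 of the 8 were negative. Their limma adjusted p ran from 0.248 to 0.326. Olfr558, an odorant receptor also known from blood vessels and kidney, had a difference of -0.46, with means of 7.72 ± 0.10 in control and 7.25 ± 0.06 in early-life mice (SD, n = 4 each).

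In peripubertal minus control, 2 of 111 members were called (1.80%), beside 0.235% of all 24292 probes tested. They were Vmn2r28, higher, and Olfr1357, lower. Each met the membership rule only through the group in which it was high, so nothing is read from these shares, and with detection required in at least 8 samples 0 members were called in limma, with neither gene tested. Without E1 neither was called, and without C1, C3, C4, E3, P3 or P4 1 was. At an unadjusted p under 0.05 there were 30 members (27.0%), beside 11.6% of all probes, and 28 of the 30 were higher, beside 6.5% of all probes. Vmn2r28 and Olfr1357 are counted in the 30. The members without a call whose p was smallest were Vmn2r4, Olfr1402, Olfr353, Olfr100, Olfr1339, Vmn2r3, Olfr700 and Olfr74. Their log2 differences were 0.25 to 0.45, with adjusted p from 0.0546 to 0.216 in limma.

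In peripubertal minus early-life, 11 of 111 members were called (9.91%), beside 2.08% of all 24467 probes tested, and all 11 were higher, beside 1.63%. Vmn2r28 is among the 11 and met the membership rule only through the peripubertal mice, so nothing is read from its place there. With detection required in at least 8 samples, where Vmn2r28 was not tested, 10 members were called in limma, all higher. At an unadjusted p under 0.05 there were 43 members (38.7%), beside 23.2% of all probes, and Vmn2r28 is counted in the 43. The median log2 difference over the members was 0.23, with 92 of 111 above 0 (82.9%), against 0.03 and 54.4% over all probes and 0.03 and 54.9% in the lowest class of level. This comparison shares the peripubertal mice with the one above and the early-life mice with the one before it. Leaving out E1 or E3 left 0 members called, and leaving out E2 gave 20. Without C1, C2, C3, E4, P1, P2, P3 or P4 the count was 6, 4, 3, 5, 1, 3, 5 and 3.

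Apart from Vmn2r28 the called differences were small. Olfr1350 read 157, 220.2, 135 and 254 in E1 to E4 and 187, 280.1, 202 and 407 in P1 to P4. After normalization its values were 7.77 to 7.87 in early-life and 8.22 to 8.34 in peripubertal mice, which did not overlap, and controls lay between them at 8.01 to 8.08. The log2 difference was 0.46 ± 0.07 (SE), a 1.38-fold rise, with a limma adjusted p of 0.0265.

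Vmn2r4 and Vmn2r3, vomeronasal type 2 receptors of the family that is broadly co-expressed in basal vomeronasal neurons, also rose. Vmn2r4 averaged 7.09 ± 0.04 in early-life and 7.58 ± 0.10 in peripubertal mice (SD, n = 4 each), with a difference of 0.49 ± 0.08 (SE) and a limma adjusted p of 0.0288. Vmn2r3 averaged 7.66 ± 0.05 and 8.10 ± 0.05, with a difference of 0.44 ± 0.08 and an adjusted p of 0.0340. Over the 12 samples the 2 correlated at r = 0.894, and since their probes share 50 of 54 aligned bases they cannot be counted as separate observations. The other probe of Vmn2r3 was above background in 0 samples.

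The remaining 7 odorant receptor genes called were Olfr353, Olfr700, Olfr1402, Olfr1252, Olfr96, Olfr166 and Olfr635. They rose by 0.34 (Olfr96) to 0.47 (Olfr635) on the log2 scale, with limma adjusted p from 0.0320 (Olfr353) to 0.0496 (Olfr635). In each of the 11 called genes the 4 dye-adjusted peripubertal values lay above the 4 early-life values. Over all members this held for 50 genes (45.0%), beside 16.1% of all probes. Vmn2r28, which met the membership rule only through the peripubertal mice, is counted in both.

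The negative control spots, which match no mouse transcript, moved the other way and by less: their mean log2 intensity was 6.30 ± 0.02 in control, 6.29 ± 0.02 in early-life and 6.24 ± 0.03 in peripubertal mice (SD, n = 4 each). Macrophage markers moved with the peripubertal minus early-life difference. Of 9 markers above background 5 were higher, C1qa, C1qb, Fcgr1, Mrc1 and Ptprc. The mean log2 level of the macrophage markers with a value in a sample was 9.14 to 9.54 in early-life and 10.06 to 10.68 in peripubertal samples. Values set aside as outliers, such as some of Cd68, were left out, so the markers averaged can differ between samples in each list. Oviduct epithelium markers moved the other way in this comparison: 0 of 9 were called in limma, with a median log2 difference of -2.74, and the ranges of their mean level given above did not overlap. Adipocyte markers averaged 9.55 to 10.98 in control, 11.26 to 13.06 in early-life and 9.98 to 11.70 in peripubertal samples. These ranges did not overlap between control and early-life, and 0 of 10 were called in any comparison. The part of these 3 marker lists in the receptor differences was not tested.

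**Figure D5:**
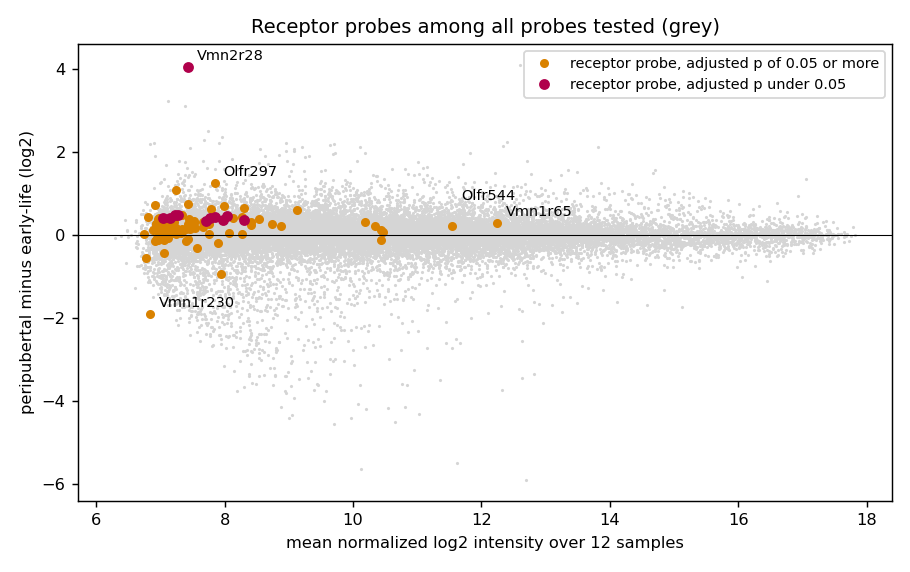
Log2 difference of peripubertal minus early-life mice against the mean normalized log2 intensity over 12 samples, for all probes tested (grey), receptor probes called (red) and not called (orange). Vmn2r28 stands at 4.04, the other 10 called receptor probes lie between 0.34 and 0.49, and Vmn1r230 lies at -1.91.

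Probes of related genes were compared by the sequences they share. In RefSeq, Olfr314 overlaps Fam183b and Olfr524 overlaps Cd163l1. No other member found in RefSeq overlapped a gene outside the receptor families among the genes searched. Genes named Gm or Taar with a number were left out of that search. Of the 111 members, 19 shared at least 40 identical aligned bases with a probe of another gene, and for 10 of the 19 such a gene was itself a member. The neighbouring genes Olfr328, Olfr329-ps, Olfr330 and Olfr331 on chromosome 11 varied together, with r from 0.953 to 0.990 between any 2 of them over 12 samples. Among them only the probes of Olfr328 and Olfr330 shared at least 40 identical bases, 47 of 49 aligned. Olfr329-ps and Olfr331 correlated at r = 0.954 without such sharing. Olfr330 read 270 and 299 in C1 and C2, 154 and 105 in C3 and C4, and 130 and 608 in P1 and P2. Here the 2 mice of an array differed, unlike in Olfr434. Vmn2r12 and Vmn2r13, whose probes hold an identical run of 51 bases, correlated less, at r = 0.546. Vmn2r13 read 142 and 196.5 in C3 and C4, where Vmn2r12 read 82.9 and 106.

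The genes with which receptor neurons signal were examined beside the receptors. Of 20 genes for odorant signal transduction and receptor transport on the array 15 were above background, and in peripubertal minus early-life 2 were higher and 0 lower. Those 2 were Omp, the marker protein of mature olfactory neurons, and the cyclase Adcy3, which many cell types use. Omp averaged 9.02 ± 0.49, 7.79 ± 0.34 and 9.71 ± 0.39 in control, early-life and peripubertal mice (SD, n = 4 each), a difference of 1.93 ± 0.30 (SE) with a limma adjusted p of 0.0286. In RefSeq the gene overlaps Capn5, and the signal of that gene was not separated here. Adcy3 differed by 0.63 ± 0.13 with an adjusted p of 0.0448. In RefSeq it overlaps Cenpo. Related genes of the list went different ways. The channel subunit Cnga4 was above background in 0 samples but the subunits Cnga2 and Cngb1 in 12, and the receptor transporter Rtp1 in 1 but Rtp2 in 12. Gnal was above background in 5 samples, while Ric8b, which helps to fold the Gnal protein, and the G protein subunit Gng13 were above it in 12.

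Of 14 vomeronasal signalling genes on the array 7 were above background, and 1 was higher in peripubertal than early-life mice. That was Trpc2, at 8.45 ± 0.07 against 8.81 ± 0.02 (SD, n = 4 each), with a limma adjusted p of 0.0435; it overlaps Xndc1 and the read-through gene Xntrpc in RefSeq. Of the 7 H2-M genes of the M1, M9 and M10 kinds on the array, which accompany Vmn2r receptors in vomeronasal neurons, none was above background in more than 2 samples. H2-M11, the other H2-M gene of the list, was above it in 12 samples. Its peripubertal minus early-life difference was 0.62 ± 0.15 (SE), with a limma adjusted p of 0.0582. In early-life minus control and in peripubertal minus control, 0 genes of either list were called in limma.

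Other markers of the olfactory lineage were mixed. Of 12 on the array 7 were above background, and 0 were called in any comparison by limma. The neuronal factors Neurog1 and Neurod1 were above background in 0 and 2 samples and the olfactory epithelium enzyme Cyp2g1 in 2, while Umodl1 and the neuronal tubulin Tubb3 were above it in 12. Of 12 genes known to control receptor gene choice in the nose, such as Lhx2, Ebf1 and Ldb1, 11 were above background and 0 were called. Families that include other chemosensory receptors were matched by the start of the gene name, so not every gene counted need be such a receptor. Of these, 0 of 14 Taar, 1 of 3 Tas1r, 2 of 35 Tas2r, 1 of 6 Fpr and 8 of 18 Ms4a genes were above background. The macrophage-expressed Ms4a7 was the sole call, in peripubertal minus early-life.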

How the data were processed

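Two-colour Agilent arrays of 12 ovary samples were analysed from the deposited scanner files. Per the file headers, the authors scanned and quantified them with Agilent Feature Extraction 11.0.1.1, which gives each spot's mean signal intensity and local background per channel, with flags for spots well above background and for outliers; genome positions are on mm9. The deposited log2 value table was used only as an alternative. Of its columns, 8 matched the scanner channels of the other diet group and 4, the peripubertal ones, matched no array closely (best r 0.874 to 0.897).

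With limma 3.58.1 in R 4.3.3, normexp background correction (offset 50) was followed by within-array loess and between-array Aquantile scaling, and both channels entered as separate log2 values. Control spots and outlier spots were left out and the spots of a probe averaged. Probes above background in at least 4 samples were fitted with diet and dye, array as a random block (correlation 0.294) and Benjamini-Hochberg adjustment over all probes. Precision is limited by there being 6 arrays. The fit was tested on simulated data. Replicate numbers were not used to pair the mice in the main fit. After removal of group and dye means, same-numbered samples correlated at -0.351 to 0.500. Differently numbered samples were not set beside them.

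Members, lists and tests were chosen with earlier results of these data known. Named genes are those called, the 10 with the smallest p per comparison, the 10 brightest, the 5 with the widest range within a group, Vmn2r28 and Olfr1357; from other lists, the genes called and defining markers. For a gene with several probes in those lists the brightest was used. RefSeq (GRCm38.p6) held 110 of the 111 member names and gave overlaps only. Within-group values come from 4 mice. Each comparison was repeated with other corrections, scalings, filters, blocks and with each mouse left out.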

Additional observations from a re-analysis of the deposited data

Results flagged for a closer look

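Within the groups of 4 mice, the highest and lowest log2 intensity of each of the 35 named receptor genes was set against the other 3, which gives 105 group values; chance marks about 1 in 20 of them. A single mouse stood apart in 5. Vmn2r28 was lower in C3, at 5.79, than in the other controls, at 6.42 to 6.43, all below the level well above background. Olfr125 was lower in C3, at 6.33 against 6.49 to 6.53. Olfr224 was lower in C4, at 9.98 against 10.19 to 10.22. Olfr100 was lower in E1, at 6.98, and the other 3 early-life mice lay at 7.06. Olfr1229 was lower in E2, at 10.37 against 10.45 to 10.46.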

How the results depend on the processing

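Vmn2r28 and Olfr1357 each met the membership rule only through the group in which the gene was high. Both were named with earlier results known, so the settings below give no independent support for either. Vmn2r28 kept its direction in every setting in which it was measured. Its log2 difference ran from 3.45 to 3.99 against control and 3.73 to 4.28 against early-life when a mouse was left out, with adjusted p from 0.0226 to 0.0592 and 0.00633 to 0.0800. With only the 2 groups compared the difference from control, 3.76, was no longer called. With the replicate block the adjusted p were 0.0449 and 0.0310. The value table gave too few values for this probe. Olfr1357 in early-life minus control stayed at -0.88 but lost its call with quantile scaling, no filter, outlier spots kept, only the 2 groups compared, the brightest probe per gene and the replicate block (adjusted p 0.0505 to 0.159). Without a mouse it ran from -0.94 to -0.82. It reversed to 0.88 with control and early-life arrays exchanged and to 1.41 in the value table.

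The counts of called members were less stable. In early-life minus control the count of 1 became 0 with quantile scaling, no filter, detection in at least 8 samples, outlier spots kept, only the 2 groups, the brightest probe per gene or the replicate block, 2 in the value table, and 0 to 1 without a mouse. In peripubertal minus control the 2 became 5 with the scanner software's processed signals, 6 without the array block, 0 with detection in at least 8 samples or only the 2 groups, 1 with the replicate block, 11 with the groups exchanged, 66 in the value table, and 0 to 2 without a mouse. In peripubertal minus early-life the 11 became 30 without the array block, 7 with trend and robust variance, 1 with only the 2 groups, 2 with the groups exchanged, 67 in the value table and 0 to 20 without a mouse; the replicate block gave 10. Causes were not tested, except that exchanging groups turns signs by construction and Vmn2r28 and Olfr1357 fail a filter of 8 samples. The 111 genes became 311 with detection in at least 1 sample, 70 in at least 8, 50 in all 12 and 100 to 108 when a mouse was left out. Levels near background and 2 arrays per group limit what can be resolved.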
